A study of Mus musculus with 16 samples.

Results

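The genes described here are the 4 Egr transcription factors, Egr1, Egr2, Egr3 and Egr4, and the corepressors Nab1 and Nab2, which bind Egr proteins. They were chosen by name, as the complete set of the Egr factors and of their dedicated corepressors, and make up 6 of the 55385 genes in the deposited tables. All 6 passed the filter on low counts, which left 17222 genes to be tested. RNA was measured in 16 libraries of primary hippocampal cultures from newborn C57Bl/6N mice. Every culture carried a recombinant adeno-associated virus with a shRNA behind the U6 promoter and GFP behind the chicken β-actin promoter. The shRNA was either Control-shRNA or a single sequence against Dnmt3a1, the long isoform of the DNA methyltransferase Dnmt3a, and cultures were kept at baseline or treated for 4 h with bicuculline. Each of the 4 combinations had 4 replicates, which the study describes as independent neuronal preparations.

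Egr factors are immediate early genes. Synaptic activity raises calcium and activates ERK kinases, and SRF with its Elk partners and CREB then switch Egr promoters on without new protein synthesis. The proteins bind GC-rich sites through zinc fingers. Egr1, Egr2 and Egr3 carry a short domain that recruits Nab1 or Nab2, and the Nab proteins limit Egr-driven transcription, in part through the CHD4 chromatin remodelling complex. Nab2 has been described as a target of Egr factors and so as part of a negative feedback loop. In hippocampal neurons Egr1, also known as Zif268, marks recently active cells and is required for lasting memory. Bicuculline blocks GABA-A receptors and sets cultured networks into synchronous firing.

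Summed counts ran from 28912697 to 29586355 per library. Levels are given as TMM-scaled counts per 1000000 counts of a library (CPM) unless said otherwise. The targeted gene, Dnmt3a, lay between 293 and 338 CPM in the 8 Control-shRNA libraries and between 39.4 and 48.0 CPM in the 8 Dnmt3a1-shRNA libraries, which gave a log2 fold change of -2.81 ± 0.06 (SE) at baseline. Defining markers of neurons were high throughout, with the summed CPM of 5 markers at 4614 to 6190. The 5 astrocyte markers summed to 237 to 624 CPM and the 5 microglia markers to 1.72 to 4.77 CPM. Summed markers of GABAergic neurons (Gad1, Gad2 and Slc32a1) differed between conditions, at 1170 to 1489 CPM in Control-shRNA baseline libraries and 1715 to 2168 CPM in Control-shRNA bicuculline libraries, and with Dnmt3a1-shRNA at 890 to 1175 and 1455 to 1911 CPM. Markers of excitatory neurons summed to 2351 to 2590 CPM in Control-shRNA and 2092 to 2319 CPM in Dnmt3a1-shRNA libraries at baseline, without overlap, and to 2276 to 2491 and 1975 to 2305 CPM with bicuculline. The part of these marker differences in the results below was not tested. In RNA from whole cultures, fewer cells of a type and less RNA per cell cannot be told apart.

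The promoters of Egr2 and Egr4 are shown because both genes rose with bicuculline and their upstream stretches hold letters of the classical activity-responsive elements. Egr2 (chr10:67535475-67542188, plus strand, GRCm38) has several annotated starts, and the stretch below is the 250 bases before the start at position 67537869, at chr10:67537619-67537868. Capitals mark a CArG box, the binding element of SRF, and the CREB-type core TGACG, which reads CGTCA where it lies on the other strand.
Egr2: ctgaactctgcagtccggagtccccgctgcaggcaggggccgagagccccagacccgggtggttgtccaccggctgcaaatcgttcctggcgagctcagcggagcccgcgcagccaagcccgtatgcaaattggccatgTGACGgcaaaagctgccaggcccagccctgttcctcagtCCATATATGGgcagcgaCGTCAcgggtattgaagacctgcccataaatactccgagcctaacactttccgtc
The Egr4 stretch (gene at chr6:85511121-85513589, minus strand) lies at chr6:85513590-85513839 and is written 5′ to 3′ along the gene. Capitals mark the same core and a TATAA element. The Egr4 window held no CArG box.
Egr4: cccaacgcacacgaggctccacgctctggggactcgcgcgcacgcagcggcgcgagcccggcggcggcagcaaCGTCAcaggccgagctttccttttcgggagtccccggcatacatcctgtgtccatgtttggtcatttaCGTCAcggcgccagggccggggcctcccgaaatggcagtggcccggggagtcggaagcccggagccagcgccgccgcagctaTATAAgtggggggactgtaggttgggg
Neither stretch overlapped an exon of GENCODE M21.

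The CArG box of Egr2 began 72 bases before this start, and the TGACG cores began 111 and 55 bases before it. Of the 5 annotated starts of Egr2, the one at position 67537566 also had a CArG box 72 bases upstream, those at 67537870 and 67537930 shared the elements shown, and the window of the most upstream one, at 67535499, held none of the motifs searched. In Egr4 the cores began 177 and 109 bases before the start and TATAA began 27 bases before it. Nab1 (chr1:52457294-52500679, minus strand) held the 9-base Egr site GCGTGGGCG 2 times and its variant GCGGGGGCG 1 time. It also held the TGACG core, on the other strand, which began 123 bases before the RefSeq start. The forward GCGTGGGCG began 109 bases before the RefSeq start, and is shown with its surroundings at chr1:52500538-52500567, which lie within the annotated exon of another Nab1 transcript.
Nab1: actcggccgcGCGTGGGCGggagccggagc
The window of Nab2 (chr10:127660918-127668568, minus strand) held none of the motifs searched. That window belongs to a RefSeq start at position 127666703, inside the annotated span of the gene. The bases around the upstream end of the span, at 127668568, were not searched. Sequences were taken from RefSeq (GRCm38.p6) as windows of 300 bases per start, used here for 4 of the 6 genes, and both strands were searched. Egr1 and Egr3 were not searched. Among all 32851 windows of that length, 1.63% held a CArG box, 20.8% held TGACG, 1.79% held the longer TGACGTCA that contains it, 0.612% held GCGTGGGCG, 2.91% held GCGGGGGCG and 24.9% held TATAA. No member window that was searched held TGACGTCA. A match gives the letters only and was not set against any measurement of binding.

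With Control-shRNA, 4 h of bicuculline raised all 4 Egr factors, by 7.06-fold to 41.6-fold, while Nab2 fell to 0.689 of its baseline level and Nab1 was 1.26-fold higher, under the fold threshold. A gene was called when its adjusted p in edgeR's quasi-likelihood test (Benjamini-Hochberg over all 17222 genes) was under 0.05 and its log2 fold change was beyond 0.5 in either direction. By that rule 4 of the 6 members were called higher, against 10.8% of all tested genes, and 1 of 6 was called lower, against 11.1%. For all 6 members the CPM values of the 4 bicuculline libraries did not overlap those of the 4 baseline libraries, which held for 39.7% of tested genes.

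Egr1 in the Control-shRNA baseline libraries stood at 39.5, 39.3, 61.1 and 35.7 CPM in replicates 1 to 4. With bicuculline the libraries of the same numbers stood at 1546, 921, 964 and 868 CPM. Replicate 3 was the highest baseline library and replicate 1 the highest stimulated library. Between same-numbered libraries the log2 ratio ran from 3.98 in replicate 3 to 5.29 in replicate 1. The labels do not say whether a replicate number marks 1 preparation, so a difference among preparations was not shown. The fitted log2 fold change was 4.61 ± 0.23 (SE, n = 4 per group, adjusted p = 5.14e-11, edgeR). It ranked 39 from the top of the 17222 genes.

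Egr2, which in the nervous system is best known for its requirement in peripheral myelination and hindbrain patterning, was the scarcest member at baseline. Its baseline libraries held 2.01, 1.02, 1.79 and 1.33 CPM, equal to 61, 33, 59 and 41 counts. After bicuculline they held 94.4, 50.3, 50.3 and 61.3 CPM. The log2 fold change of 5.38 ± 0.24 (adjusted p = 1.68e-11, edgeR) was the largest of the 6 members and ranked 24 among all genes.

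Egr3, which shares much of its DNA-binding specificity with Egr1, started higher than Egr1 in CPM and rose less. Its levels were 71.2, 60.2, 86.2 and 61.6 CPM at baseline. In the bicuculline libraries they were 652, 443, 448 and 428 CPM. As for Egr1, replicate 3 was the highest at baseline and replicate 1 the highest after bicuculline. The log2 fold change was 2.82 ± 0.15 (adjusted p = 1.74e-10, edgeR).

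Egr4, the member that lacks the Nab-binding domain of the other three, had 34.4, 28.2, 36.9 and 29.7 CPM at baseline. With bicuculline it had 343, 503, 429 and 265 CPM. Its highest stimulated libraries were replicates 2 and 3, not replicate 1, which led for the other Egr factors. The log2 fold change was 3.58 ± 0.19 (adjusted p = 1.56e-10, edgeR).

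Nab1, the more broadly expressed corepressor, stood at 46.6, 38.1, 47.2 and 52.1 CPM at baseline. In the bicuculline libraries it stood at 62.5, 53.8, 56.0 and 59.6 CPM. All stimulated CPM values lay above all baseline values, by a narrow margin of 52.1 to 53.8 CPM between the nearest libraries. In TPM (transcripts per 1000000 transcripts of a library) the groups overlapped, at 23.1 to 30.7 at baseline and 26.7 to 33.2 with bicuculline. The log2 fold change of 0.33 ± 0.11 passed the adjusted p (0.0218, edgeR) and missed the fold threshold. Its size depended on the scaling. With library totals alone, where the median of all genes shifted to -0.15, the Nab1 value was 0.18 with an adjusted p of 0.143 in edgeR. On log2(TPM + 1) it was 0.13 with an adjusted p of 0.423 in limma.

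Nab2 moved the other way. Baseline libraries held 24.6, 26.2, 26.2 and 22.8 CPM and bicuculline libraries 15.3, 19.0, 18.4 and 16.1 CPM. Every replicate was lower after bicuculline, by a log2 ratio of 0.46 to 0.68. The fitted log2 fold change was -0.54 ± 0.13 (adjusted p = 0.00275, edgeR), which is just past the fold threshold. Without bicuculline replicate 1 the value was -0.49 (adjusted p = 0.0107, edgeR) and the call was lost to the fold threshold alone.

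**Figure D1:**
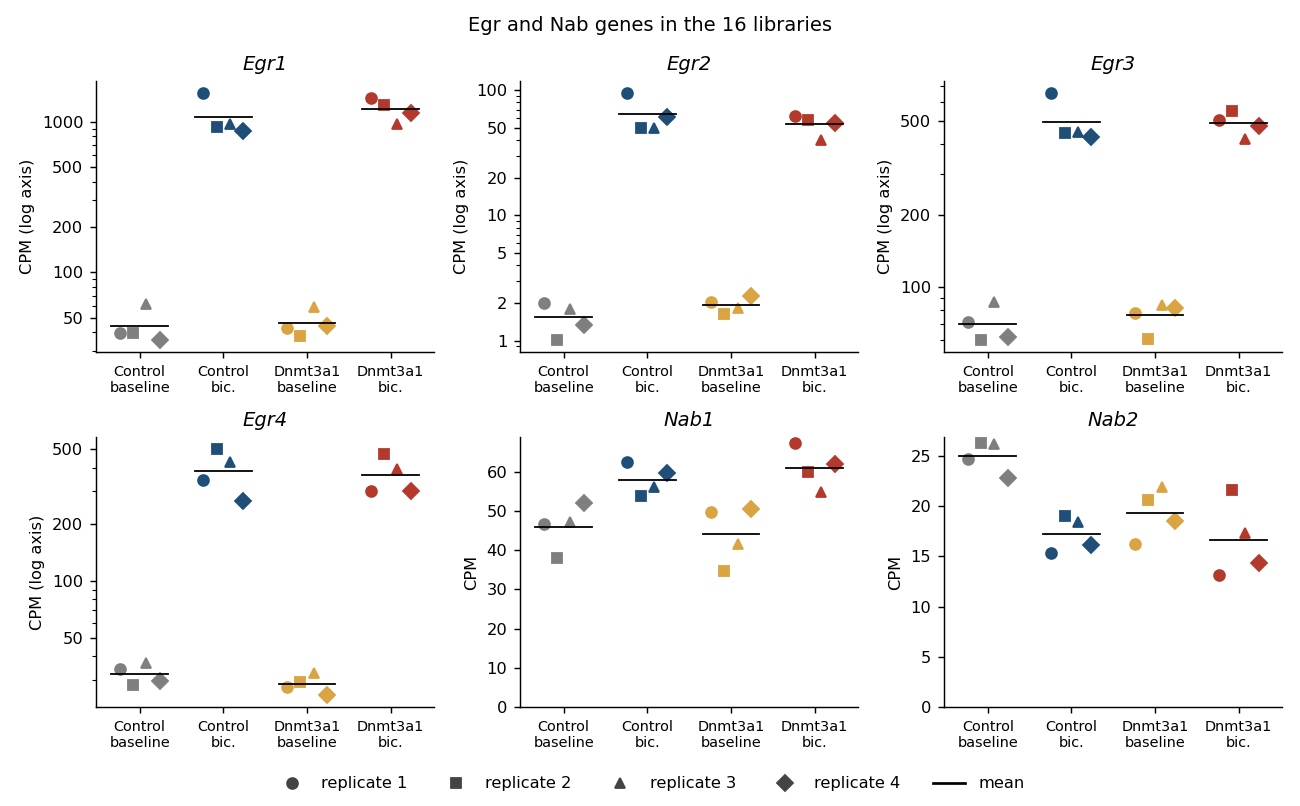
Normalised level of each gene in CPM (TMM-scaled), by library, in the 4 combinations of shRNA and bicuculline. Symbols mark replicates 1 to 4 and black lines the group means, and the Egr panels have a log axis while the Nab panels start at 0. The 4 Egr genes sit far higher in both bicuculline groups, Nab1 slightly higher, and Nab2 lower with Control-shRNA.

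Reads of Nab2 could be shared with its neighbours, because its annotated span overlaps 3 other genes. Stat6, a cytokine-responsive transcription factor, overlapped it by 40 bases and had 8 to 26 counts per library. Nemp1, a nuclear envelope protein, overlapped by 1668 bases and had 40 to 82 counts, against 333 to 861 for Nab2. Gm16229, an antisense transcript within Nab2, had 0 to 3 counts. Of the 2926 distinct 31-base words in Nab2 transcripts, 1110 also occurred in other genes on either strand, 965 of them in Gm16229, 121 in Nemp1 and 10 in Stat6. Whether counting used strand is not given in the sources used here, so reads of Nab2 and Gm16229 cannot be told apart in the shared stretch. Nab1 shared 267 of its 4163 words (6.41%) with other genes. The Egr genes shared at most 0.523% of their 31-base words with any other gene, and Egr1 shared none.

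With Dnmt3a1-shRNA the same 4 h of bicuculline raised the same 4 Egr factors, and neither Nab gene was called. The 4 of 6 members called higher compare with 12.6% of all tested genes, and the 0 of 6 called lower with 13.2%. CPM values of the stimulated and baseline libraries did not overlap for 5 of 6 members, which held for 40.4% of tested genes, and Nab2 was the exception.

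Egr1 rose from 42.6, 37.4, 59.1 and 43.7 CPM to 1436, 1285, 968 and 1146 CPM, a log2 fold change of 4.72 ± 0.23 (adjusted p = 2.86e-11, edgeR). Egr2 rose from 2.04, 1.63, 1.81 and 2.26 CPM to 61.7, 57.5, 40.0 and 54.6 CPM, a log2 fold change of 4.79 ± 0.24 (adjusted p = 3.79e-11, edgeR). In these cultures Egr1 and Egr2 had nearly the same fold change. Egr3 rose from 77.7, 60.6, 83.8 and 82.0 CPM to 505, 551, 420 and 476 CPM, a log2 fold change of 2.68 ± 0.15 (adjusted p = 2.09e-10, edgeR). Egr4 rose from 27.3, 29.2, 32.5 and 24.9 CPM to 301, 475, 395 and 300 CPM, a log2 fold change of 3.69 ± 0.19 (adjusted p = 7.99e-11, edgeR). Replicate 2 was the highest stimulated library for Egr3 and Egr4, and replicate 1 for Egr1 and Egr2.

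For Nab1 the baseline values were 49.7, 34.8, 41.6 and 50.5 CPM and the bicuculline values 67.3, 59.8, 54.8 and 61.9 CPM. In TPM these groups overlapped, at 18.4 to 28.5 at baseline and 27.6 to 30.2 with bicuculline. The log2 fold change of 0.46 ± 0.11 (adjusted p = 0.00213, edgeR) stayed under the fold threshold. Leaving out baseline replicate 1, baseline replicate 4 or bicuculline replicate 3 brought it to 0.53, 0.53 and 0.51, each past that threshold. Nab2 had 16.2, 20.6, 21.9 and 18.5 CPM at baseline and 13.2, 21.6, 17.4 and 14.4 CPM with bicuculline. It was lower in 3 of 4 replicates and slightly higher in replicate 2. Its log2 fold change was -0.22 ± 0.13 (adjusted p = 0.195, edgeR), and -0.37 (adjusted p = 0.0175, edgeR) without bicuculline replicate 2.

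**Figure D2:**
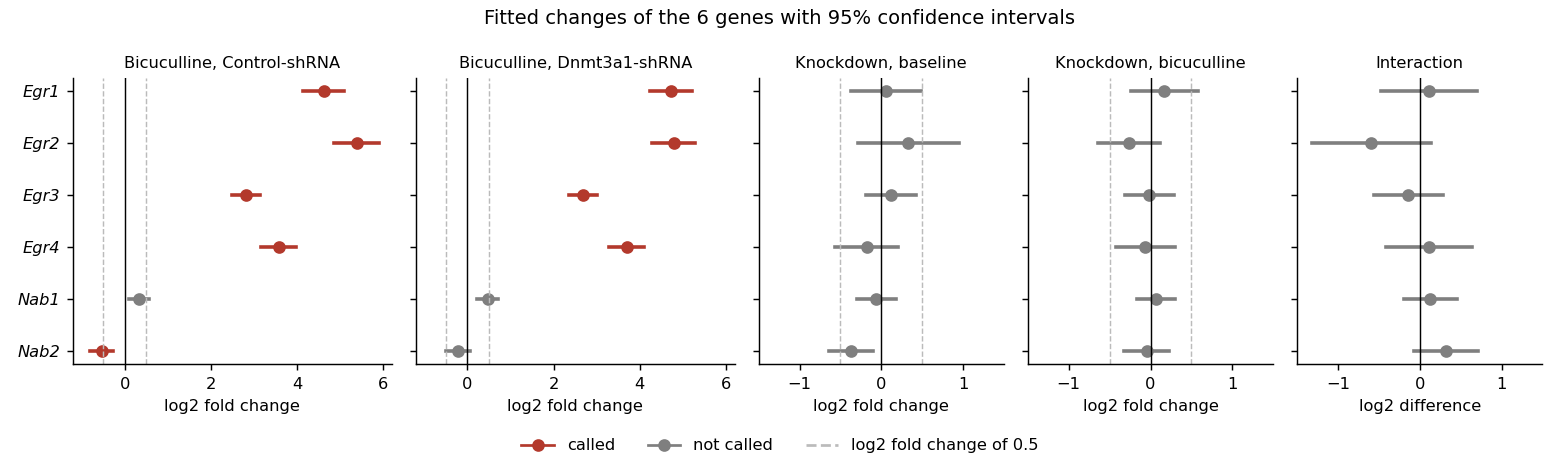
Fitted log2 fold changes of the 6 genes (points) with 95% confidence intervals (bars) in the 4 comparisons, and the difference between the 2 bicuculline responses in the last panel (Dnmt3a1-shRNA minus Control-shRNA). Red marks called genes and dashed lines a log2 fold change of 0.5. The 4 Egr genes are called in both bicuculline panels, Nab2 in the first, and no gene in the knockdown or interaction panels.

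In baseline cultures, Dnmt3a1-shRNA against Control-shRNA changed no member past the threshold, against 5.83% of all tested genes called in either direction. That count of 0 was also given by voom with limma and by DESeq2, and 1 member had an unadjusted p under 0.05 in edgeR. The nearest was Nab2, whose Dnmt3a1-shRNA libraries (16.2 to 21.9 CPM) lay below all Control-shRNA libraries (22.8 to 26.2 CPM). It was the only member of the 6 without overlap in CPM, which held for 19.9% of tested genes. In TPM its libraries overlapped, at 13.9 to 21.7 with Dnmt3a1-shRNA and 20.1 to 26.7 with Control-shRNA. The log2 fold change was -0.37 ± 0.13 with an adjusted p of 0.0587 (edgeR), and it was lower in 4 of 4 replicates. With the replicate number as a block, it was -0.38 with an adjusted p of 0.00181 (edgeR), still short of the fold threshold. Over 26 alternative settings the adjusted p of this value ran from 0.00181 to 0.166 and was under 0.05 in 9. The Egr factors showed small fitted values with wide intervals. Egr1 was at 0.06 (95% interval -0.37 to 0.48), Egr3 at 0.12 (-0.18 to 0.43) and Egr4 at -0.18 (-0.56 to 0.20) on the log2 scale. For Egr2, with 33 to 67 counts per baseline library, the log2 value of 0.33 had an interval of -0.29 to 0.95, which spans 0.819-fold to 1.93-fold. Nab1 was at -0.06 (-0.29 to 0.17).

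Microglia markers also differed at baseline, with summed CPM of 1.72 to 2.85 in Dnmt3a1-shRNA against 3.27 to 4.44 in Control-shRNA libraries, as did the excitatory neuron markers given above. Their part in the Nab2 values was not tested.

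With bicuculline in both arms, no member was called between Dnmt3a1-shRNA and Control-shRNA, against 5.89% of all tested genes, and the libraries of the 2 arms overlapped for all 6 members, while 20.9% of tested genes had no overlap. The count called was also 0 by voom with limma and by DESeq2, and 0 members had an unadjusted p under 0.05 in edgeR. Fitted log2 fold changes were 0.17 for Egr1 (95% interval -0.24 to 0.58), -0.26 for Egr2 (-0.64 to 0.12), -0.01 for Egr3 (-0.31 to 0.28) and -0.07 for Egr4 (-0.43 to 0.29). Nab1 was at 0.07 (-0.16 to 0.30) and Nab2 at -0.05 (-0.33 to 0.23). The intervals of Egr3, Egr4, Nab1 and Nab2 lay within 0.5 in either direction, so changes beyond the fold threshold fell outside them. The intervals of Egr1 and Egr2 reached past it.

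The difference between the 2 bicuculline responses was tested as an interaction. No gene of the 17222 passed the adjusted p (0% of tested genes, edgeR), with 852 at an unadjusted p under 0.05, and no gene by voom with limma and 17 by DESeq2, none of them a member. Among the members, Egr2 had an interaction of -0.59 (95% interval -1.32 to 0.13) and Nab2 of 0.32 (-0.07 to 0.71), with unadjusted p of 0.104 and 0.0988 and an adjusted p of 0.999975 for both (edgeR). Thus the call of Nab2 with Control-shRNA and its absence with Dnmt3a1-shRNA were not shown to differ. The 4 groups are shared among these comparisons, so their values are not independent of each other. The Nab2 order over groups makes this plain, since its mean was 25.0 CPM in Control-shRNA baseline libraries and 19.3, 17.2 and 16.6 CPM in the other three groups.

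Levels of different genes can be compared only per transcript length, here in TPM, transcripts per 1000000 transcripts of a library. At baseline with Control-shRNA the mean TPM ran in the order Egr3 (45.0 ± 9.13 SD), Egr4 (34.4 ± 5.28), Egr1 (30.2 ± 9.50), Nab1 (27.4 ± 3.34), Nab2 (23.8 ± 3.25) and Egr2 (1.48 ± 0.501), each with n = 4. Neighbours in this order overlapped between libraries except Nab2 and Egr2. After bicuculline the order was Egr1 (624 ± 151 TPM), Egr4 (355 ± 102), Egr3 (274 ± 43.9), Egr2 (45.9 ± 12.5), Nab1 (30.0 ± 2.87) and Nab2 (13.9 ± 2.04). Only Egr4 and Egr3 overlapped among neighbours there. With Dnmt3a1-shRNA, Egr3 (45.1 TPM) again led at baseline and Egr1 (656 TPM) after bicuculline, and stimulated Egr2 (36.4 TPM) overlapped Nab1 (28.8 TPM).

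The make-up of the Egr transcripts differed between states, with a larger share for Egr1 after bicuculline. Its share of the summed Egr TPM was 24.4, 27.3, 30.3 and 25.4% in the Control-shRNA baseline libraries and 54.8, 41.7, 45.3 and 49.1% after bicuculline. Egr3 went the other way, from 39.8 to 41.3% at baseline to 19.4 to 23.2% after bicuculline. Egr2 held 0.80 to 1.60% and then 2.84 to 4.29%, and Egr4 28.6 to 32.8% and then 19.1 to 36.0%, the widest spread of the 4. Shares with Dnmt3a1-shRNA were alike at baseline, with Egr1 at 25.8 to 30.99% and Egr3 at 40.6 to 48.1%. In its bicuculline libraries Egr1 held 47.5 to 58.6% and Egr3 19.4 to 21.5%.

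Corepressor transcripts per Egr transcript were far fewer after bicuculline, which mostly restates the rise of the Egr factors. In Control-shRNA libraries the mean of summed Egr went from 111 to 1299 TPM, and that of summed Nab from 51.3 to 43.9 TPM. In CPM, summed Nab went from 71.0 to 75.2. Summed Egr includes Egr4, which lacks the Nab-binding domain. Summed Nab1 and Nab2 came to 46.7, 50.4, 39.2 and 51.9 TPM per 100 TPM of summed Egr in Control-shRNA baseline libraries. With bicuculline the figures were 2.63, 3.22, 3.79 and 4.17. In Dnmt3a1-shRNA libraries they ran from 35.9 to 42.4 at baseline and from 3.08 to 3.58 with bicuculline. Nab2 made up 40.7 to 53.3% of the summed Nab TPM in Control-shRNA baseline libraries and 28.7 to 36.0% after bicuculline. In CPM, which is not corrected for length, these Nab2 shares ran from 30.4 to 40.8% and from 19.7 to 26.1%. These are ratios of transcripts, and no protein was measured.

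**Figure D3:**
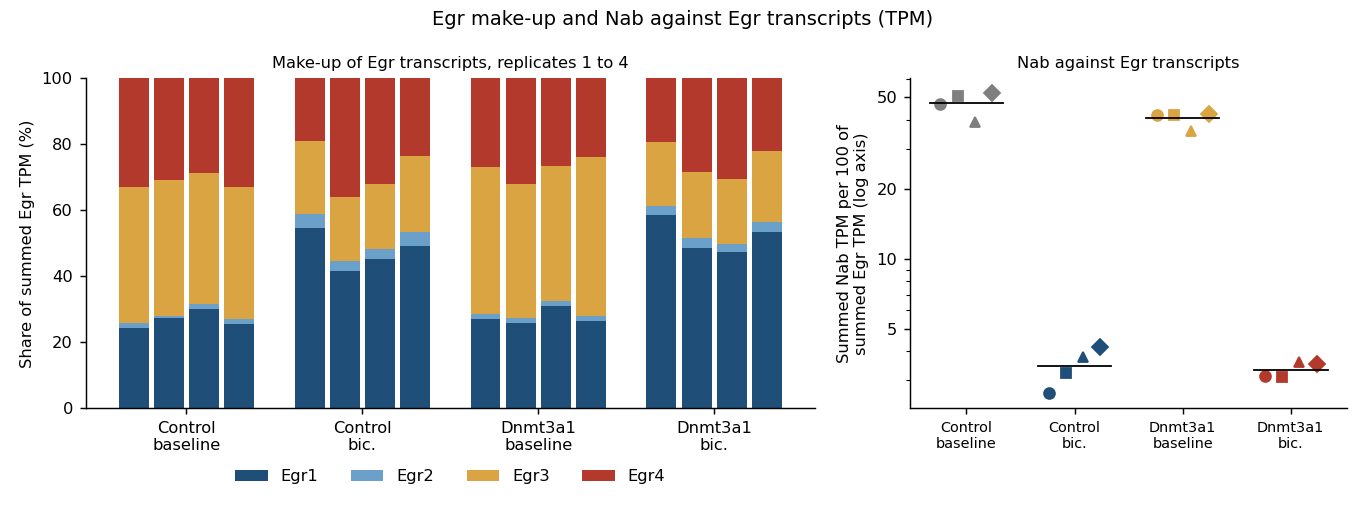
Left, share of each Egr gene in the summed Egr TPM (percent), 1 bar per library in the order of replicates 1 to 4. Right, summed Nab1 and Nab2 TPM per 100 of summed Egr TPM on a log axis, with symbols for replicates 1 to 4 (circle, square, triangle, diamond) and lines for the means. Egr1 takes the largest share in all 8 bicuculline libraries and the Nab ratio falls from 35.9 or more to 4.17 or less.

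Some members followed the replicate number across groups. Replicates 2 and 3 had the highest Nab2 CPM of the 4 in each of the 4 groups, and also the highest Egr4 CPM in both bicuculline groups. Replicate 3 was the highest library for Egr1 and Egr3 in both baseline groups. Replicate 1 was highest for Egr1 and Egr2 in both bicuculline groups. Same-numbered libraries deviated together over all genes at baseline, with correlations of 0.204 to 0.355.

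The genes whose pattern over the 16 libraries was most like that of each member were found by the root mean square difference of log2 CPM after centring each gene on its mean. The 13880 genes that averaged 1 CPM or more were compared. For Egr1 they were Gadd45b (difference 0.285), Nr4a1 (0.303) and Csrnp1 (0.315), all known as immediate early genes. For Egr2 they were Csrnp1 (0.265), Egr1 (0.353) and Inhba (0.360), the last a subunit of activin. Egr3 was nearest to the kinase gene Plk2 (0.214), Rasgef1b (0.219) and 1190002N15Rik (0.220). Egr4 was nearest to Mest (0.286), the phosphatase gene Dusp1 (0.301) and the nuclear receptor gene Nr4a2 (0.327). The Egr factors were thus not each other's nearest genes, with Egr1 and Egr2 the only pair among the closest 5 of either. Genes were centred but not scaled, so distances among the Egr factors largely reflect the sizes of their bicuculline responses given above. Nab1 was nearest to Camsap2 (0.0585), Bdp1 (0.0654) and Ppp4r3a (0.0711) and Nab2 to Atic (0.0971), Trnau1ap (0.121) and Naglu (0.126). For both Nab genes these distances are small because their own range over the libraries was narrow.

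Genes around the Egr factors were followed through 4 lists. In the ERK, SRF and CREB axis, which carries activity to Egr promoters, bicuculline in Control-shRNA cultures called 4 of 16 genes higher and 4 lower, against 10.8% and 11.1% of all tested genes. The median log2 fold change of the list was 0.09, against 0.01 for all tested genes. The S6 kinase gene Rps6ka2 rose from 75.8 ± 6.71 to 143 ± 8.64 CPM (mean ± SD, n = 4), a log2 fold change of 0.92. Rps6ka3 rose from 56.3 ± 5.74 to 99.6 ± 17.3 CPM, a log2 fold change of 0.82. Creb1, which encodes CREB itself, fell from 44.6 ± 6.67 to 24.4 ± 1.701 CPM, a log2 fold change of -0.87 (adjusted p = 2.83e-05, edgeR). Mapk3, which encodes an ERK kinase, was at -0.08 and was not called.

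Among 13 chromatin and protein partners of Nab and Egr proteins, 1 was called higher and 0 lower, against the same 10.8% and 11.1% of all tested genes, with a median of -0.15. The one called was Rbbp7, a histone-binding subunit of several deacetylase complexes, which rose from 144 ± 14.7 to 226 ± 21.95 CPM (log2 fold change 0.65, adjusted p = 1.4e-05, edgeR). The remodeller gene Chd4 was at -0.17 and was not called. Of 4 other zinc finger factors of GC-rich sites (Wt1, Sp1, Sp3 and Sp4) 0 were called, against 21.9% of all tested genes, with a median of 0.10. The count of 0 was the same by voom with limma and by DESeq2, and 1 of the 4, Sp3, had an unadjusted p under 0.05 in edgeR, with a log2 fold change of -0.48.

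Of 19 genes described as Egr targets, bicuculline in Control-shRNA cultures gave 4 higher and 0 lower calls, and the median was 0.25. Of all tested genes, 10.8% were called higher and 11.1% lower, and their median was 0.01. With both directions pooled, 21.1% of this list and 21.9% of all tested genes were called, so the pooled count was near the background. Arc, a synaptic immediate early gene, rose from 14.8 ± 3.67 to 740 ± 228 CPM, a log2 fold change of 5.64 (adjusted p = 3.14e-11, edgeR). The serotonin receptor gene Htr2a rose from 17.9 ± 1.92 to 37.0 ± 3.06 CPM (1.04). F3, which encodes tissue factor, rose from 2.79 ± 0.401 to 4.95 ± 0.735 CPM (0.83). Pdgfb was the fourth gene called, and the synapsin genes Syn1 (0.24) and Syn2 (0.16) were not. With Dnmt3a1-shRNA, bicuculline called 5 of these 19 genes higher and 1 lower, 3 of the 16 axis genes higher and 3 lower, 1 of the 13 partners higher and 2 lower, and 1 of the 4 zinc finger factors lower, beside 12.6% and 13.2% of all tested genes.

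Knockdown gave calls in 1 of the 4 lists. Dnmt3a1-shRNA lowered 3 of the 19 described targets at baseline and 3 with bicuculline, against 5.83% and 5.89% of all tested genes in either direction. In both states they were Syn2, Dlg4 and Ache. In the other three lists 0 genes were called in either state by edgeR, voom with limma or DESeq2, with 7 of 16 axis genes, 3 of 13 partners and 1 of 4 zinc finger factors at an unadjusted p under 0.05 at baseline in edgeR, and 3, 3 and 1 with bicuculline. Syn2, a synaptic vesicle protein gene, was at 319 ± 22.4 against 766 ± 40.7 CPM at baseline (log2 fold change -1.26, adjusted p = 3.07e-09, edgeR). Dlg4, which encodes the scaffold PSD-95, was at 421 ± 17.5 against 671 ± 17.0 CPM (-0.67). Ache, the gene of acetylcholinesterase, was at 44.6 ± 10.3 against 91.7 ± 6.05 CPM (-1.04). With bicuculline the log2 fold changes of these genes were -1.32, -0.76 and -0.998. The excitatory neuron markers were also lower in Dnmt3a1-shRNA baseline libraries. The 5 general neuron markers were not, at 4989 to 6120 CPM against 4614 to 5272 CPM in Control-shRNA baseline libraries. The part of these marker sums in the values of Syn2, Dlg4 and Ache was not tested. The Egr factors themselves were called in neither state.

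**Figure D4:**
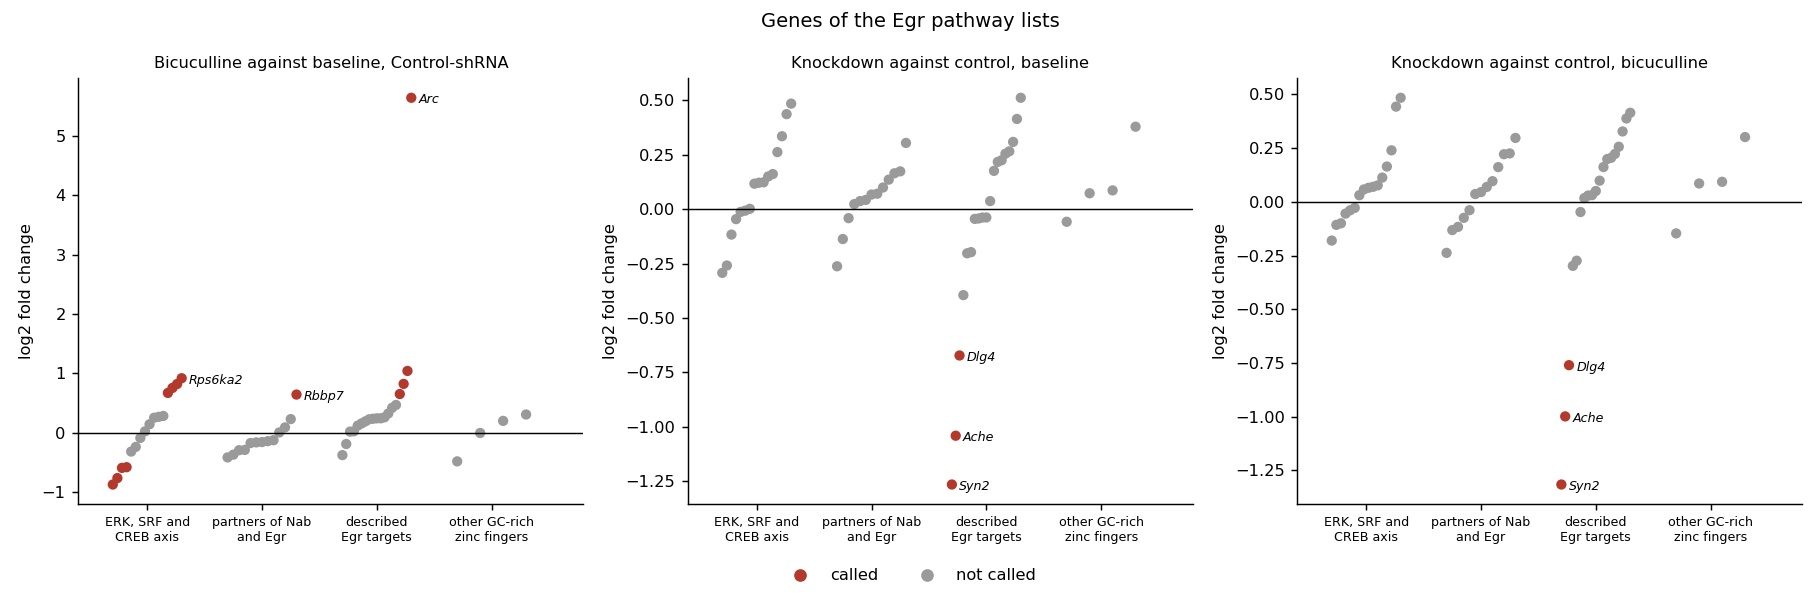
Log2 fold changes (edgeR) of the genes in 4 lists around the Egr factors, 1 point per gene, for bicuculline against baseline with Control-shRNA (left) and for Dnmt3a1-shRNA against Control-shRNA at baseline (middle) and with bicuculline (right). Red marks called genes. Arc stands far above all others at 5.64 on the left, and Syn2, Dlg4 and Ache are the only called points in the other panels.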

How the data were processed

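RNA of primary mouse hippocampal cultures was sequenced in 16 libraries, 4 per group. Per the labels and the study's methods, reads were trimmed with Trim Galore and pseudoaligned with kallisto to GRCm38.p6. The authors deposited estimated counts and TPM per gene for each library, and the depth is given by the count totals. Of 55385 gene identifiers, 55144 matched GENCODE M21. Estimated counts were rounded, genes kept by filterByExpr, libraries scaled by TMM, and the 4 groups fitted together in edgeR 4.0.16 (quasi-likelihood, R 4.3.3, Benjamini-Hochberg), a count test in place of the study's voom. Calls needed an adjusted p under 0.05 and a log2 fold change beyond 0.5. CPM values are TMM-scaled. Fold changes on the TPM scale used log2(TPM + 1). Alternatives were voom with limma 3.58.1, DESeq2 1.42.0, other scalings, filters and thresholds, TPM, a replicate block and leaving out each library. The code was tested on simulated data. Same-numbered libraries deviated together in every pair for bicuculline with Control-shRNA (r of 0.142 to 0.221) and for knockdown at baseline (0.204 to 0.355). Named genes were all members, Dnmt3a, the 3 strongest called genes of each list with bicuculline in Control-shRNA, all list genes called after knockdown, overlapping genes and the 3 most similar genes. Other list genes named with values (Mapk3, Chd4, Sp3, Pdgfb, Syn1, and Syn2 with bicuculline) were chosen after their values were seen. Members and lists were chosen with earlier results of these data known.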

Additional observations from a re-analysis of the deposited data

Results flagged for a closer look

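In 3 of 24 groups of 4 libraries (6 genes in 4 groups), 1 library stood farther from the others than Dixon's 95% critical value for 4 values allows, and chance flags about 1 in 20 groups. Egr1 in Control-shRNA baseline libraries reached 61.1 CPM in replicate 3, with the next library at 39.5 CPM. Egr1 in Control-shRNA bicuculline libraries reached 1546 CPM in replicate 1, with the next at 964 CPM. Egr3 in Control-shRNA bicuculline libraries reached 652 CPM in the same replicate, with the next at 448 CPM.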

How the results depend on the processing

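The calls of Egr1, Egr2, Egr3 and Egr4 as higher with bicuculline held under all 26 alternatives in both arms, with log2 fold changes of 2.49 to 5.53. The depth limits Egr2 at baseline, at 33 to 67 counts per library. The labels do not say whether a replicate number marks 1 preparation, so the pairing was judged from the correlations of same-numbered libraries, which were over 0.1 in every pair in 2 of the 4 comparisons. With a replicate block no member's call changed, and Nab2 gave -0.54 (adjusted p = 2.31e-05) for bicuculline with Control-shRNA, -0.22 (0.02802) with Dnmt3a1-shRNA and -0.38 (0.00181) for knockdown at baseline. Same-number correlations ran from 0.0631 to 0.337 for bicuculline with Dnmt3a1-shRNA and from 0.0667 to 0.388 for knockdown with bicuculline. The block gave 3 interaction calls over all genes and no filter gave 3, none of them a member. With library totals alone, where the median of all genes shifted to -0.15, Nab2 was at -0.69 and Nab1 at 0.18.

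Values that turned direction were all near 0 and called in no setting, and the cause was not tested. For knockdown at baseline, Egr1 turned to -0.0226 with library totals alone and to -0.0501 and -0.0516 with TPM pseudocounts of 1 and 0.1, and ran from -0.0903 to 0.26 without each library in turn, and Nab1 ran from -0.14 to 0.0395. For knockdown with bicuculline, Egr3 turned to 0.00138 with voom and 0.00414 with the replicate block, and Nab1 to -0.000736 with library totals alone and -0.0522 and -0.0537 with TPM. Without each library in turn Egr3 ran from -0.0796 to 0.15, Egr4 from -0.22 to 0.0890 and Nab2 from -0.20 to 0.0429. The interaction of Egr1 ran from -0.0924 to 0.34, of Egr3 from -0.26 to 0.0257 and of Egr4 from -0.0347 to 0.27.

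CPM, which is not corrected for length, in place of TPM moved these shares of summed Egr: Egr1 to 29.5% in Control-shRNA baseline, Egr2 to 1.28 and 2.52% in Dnmt3a1-shRNA baseline and bicuculline, Egr3 to 47.4 and 24.5% in Control-shRNA and 49.96 and 23.1% in Dnmt3a1-shRNA baseline and bicuculline, and Egr4 to 22.1, 19.6, 18.9 and 17.5% in the same order. Summed Nab per 100 of summed Egr moved to 3.69 in Dnmt3a1-shRNA bicuculline libraries, and the Nab2 share of summed Nab to 35.4 and 22.95% in Control-shRNA and 30.8 and 21.5% in Dnmt3a1-shRNA baseline and bicuculline. The other shares and ratios moved by less than 1 SD between replicates, among them Egr1 to 52.8% and summed Nab per 100 of summed Egr to 3.84 in Control-shRNA bicuculline libraries.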
